A study of Homo sapiens with 6 samples.

Results

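The genes described here encode 9 enzymes of serine synthesis and of folate metabolism: PHGDH, PSAT1, PSPH, SHMT1, SHMT2, MTHFD1, MTHFD1L, MTHFD2 and MTR. They were taken by name from a table of read counts with 56303 genes, and all 9 were found in it and were tested. The counts come from A549, an established line of human lung adenocarcinoma, in which 3 libraries were made from cells given a negative-control siRNA and 3 from cells given an siRNA against HNRNPD. HNRNPD encodes AUF1, a protein that binds AU-rich stretches of mRNAs. The labels do not give the siRNA sequences, the time after transfection or whether the libraries of a group came from separate cultures. The spread behind every p-value may therefore be technical only.

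Serine is made from the glycolytic intermediate 3-phosphoglycerate by PHGDH, which oxidises it, PSAT1, which transfers an amino group from glutamate, and PSPH, which removes the phosphate. SHMT1 in the cytosol and SHMT2 in mitochondria split serine into glycine and a carbon unit carried by tetrahydrofolate. MTHFD2 and MTHFD1L then turn that unit into formate inside mitochondria, and MTHFD1 catalyses the corresponding steps in the cytosol, where the unit serves purine, thymidylate and methionine synthesis. MTR, the cobalamin-dependent methionine synthase, passes a methyl group from folate to homocysteine. In many cancer cells several of these genes are under the control of the transcription factor ATF4, and in lung cancer cells also of NRF2 through ATF4. A549 cells are known to lack functional KEAP1, the inhibitor of NRF2.

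HNRNPD mRNA stood at 965.4, 942.8 and 942.2 CPM, the counts scaled to each library's total, in the control libraries and at 177, 162.7 and 167.5 CPM in the HNRNPD siRNA libraries, as labelled in all 6. The libraries held 37151094 to 43005090 counts, and the 9 genes had between 229 and 9597 counts each per library. Between 15.1% and 18.5% of the counts of a library lay on the mitochondrial chromosome, with overlapping ranges in the groups. All 8 markers of lung adenocarcinoma epithelium and A549 were at 1 CPM or more in every library, and their summed level was 10549 to 11434 CPM in the control libraries and 6514 to 7712 CPM in the HNRNPD siRNA libraries. Of these 8, 6 were called lower, with KRT8 (mean 3327 to 2055 CPM) and ALDH1A1 (5161 to 3787 CPM) making up most of the sum, EPCAM was called higher (log2 fold change 0.33, edgeR adjusted p = 0.00158) and CDH1 was not called (-0.13). The 5 leukocyte markers summed to 1.76 to 2.79 CPM in the control and 0.33 to 0.907 CPM in the HNRNPD siRNA libraries, mostly CD14 at means of 2.07 and 0.514 CPM. The 3 endothelial markers summed to 0.282 to 0.358 and 0.2 to 0.501 CPM. The 4 fibroblast markers summed to 4.84 to 5.99 and 6.47 to 7.97 CPM, and 3 of them were below 1 CPM in every library, the exception being COL1A1. The part of these marker differences in the results below was not tested. In bulk RNA, fewer cells with a transcript and less of it per cell cannot be told apart.

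In the HNRNPD siRNA libraries 6 of the 9 mRNAs were lower, 2 were higher and 1, MTHFD1, was not called, at an adjusted p under 0.05 in edgeR's quasi-likelihood test over all 20465 genes tested. Among all tested genes 27.8% were called lower and 28.4% higher. The median log2 fold change of the 9 was -0.67, against 0.01 for all tested genes. The groups did not overlap for any of the 9, with 7 below and 2 above every control library, while 30.9% of all tested genes lay below and 31.7% above in this way. The 3 enzymes of serine synthesis, both SHMT genes and MTHFD2 fell, whereas MTHFD1L and MTR rose.

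**Figure D1:**
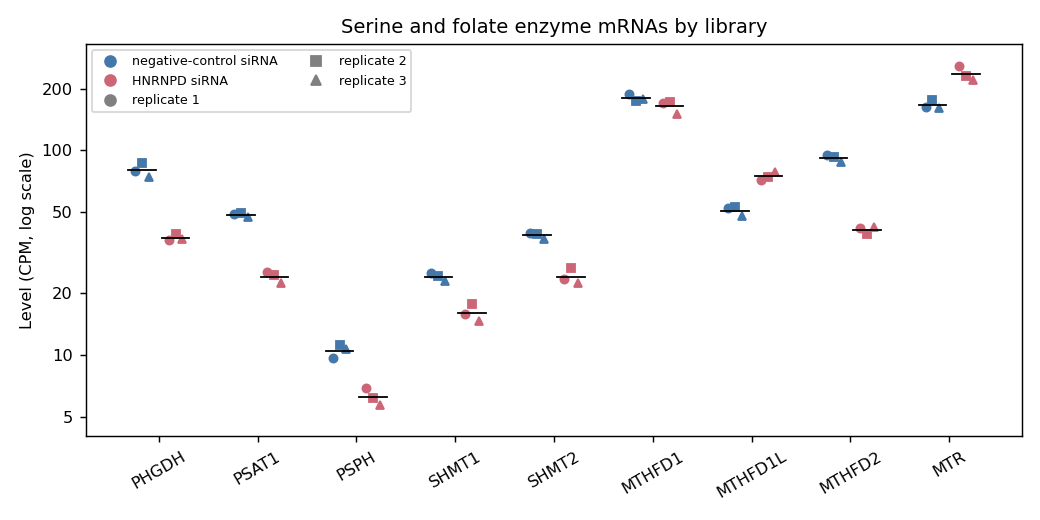
Level of each enzyme mRNA in each library, in CPM on a log scale, with control libraries in blue, HNRNPD siRNA libraries in red, a marker shape per replicate number and the group mean as a line. The red points lie below the blue ones for 7 genes and above them for MTHFD1L and MTR, and the gap is narrowest for MTHFD1.

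The short sequences that follow show where promoters of these genes hold binding motifs of factors known to act on the pathway. RefSeq promoter windows (GRCh38.p14) running from 250 bases before to 50 bases after a gene start were matched for 7 of the 9 genes in 11 windows, and those of PSPH and SHMT2 were not analysed here. They were searched on both strands for TGATGNAAT, a form of the composite element bound by ATF4 with C/EBP proteins. Also searched were CACGTG, the E-box bound by MYC and related factors, and TGACNNNGC, the core of the antioxidant response element bound by NRF2. Other forms of these elements were not searched. No searched motif overlapped another in these windows. A match is a description and not a binding site. TGATGNAAT occurred in 1.22% of the 27305 genes in the promoter table and, of the 7 genes here, in MTHFD1L, whose mRNA rose. CACGTG occurred in 8.77% of all genes and in 2 of the 7, MTHFD1L and MTHFD1. TGACNNNGC occurred in 16.06% of all genes and in 1 of the 7, MTHFD2. The windows of PHGDH, PSAT1, SHMT1 and MTR held none of these letters. The only PHGDH window, chr1:119711684-119711983, lies inside the gene as counted here. The sequence around the start of the counted gene, at 119659798, was not searched. The windows of MTHFD1L and MTHFD1 likewise lie inside the genes as counted, which start at 150865549 and 64388031. The sequence at those starts was not searched either. MTHFD1L had more windows than any other of the 7 genes, and so more sequence in which a match could occur. The matches are given 5′ to 3′ along the gene's strand, with the motif in capitals and 10 bases on each side in lower case.
MTHFD1L, chr6:150866347-150866375, plus strand, ATF and C/EBP element: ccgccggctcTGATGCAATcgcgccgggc
MTHFD1L, chr6:150866322-150866347, plus strand, E-box: cgcccggctcCACGTGcgcagccggc
MTHFD1, chr14:64388328-64388353, plus strand, E-box: agtccctaagCACGTGggttgggttg
MTHFD2, chr2:74198611-74198639, plus strand, antioxidant response element core read from the other strand: ttccctcccgGCGCAGTCAccggcgcggt

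MTHFD1L has several annotated starts. Its composite element begins 129 and 90 bases before 2 of these starts and 24 bases after another, and it lies within an exon of the gene in the deposited table. The E-box next to it begins 154, 115 and 1 bases before those starts, outside the table's exons. The MTHFD1 E-box begins 15 bases before the RefSeq start and the MTHFD2 element 6 bases after it, and both lie within exons of the table.

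PHGDH, the first enzyme of serine synthesis, lies on chromosome 1 from 119659798 to 119744215 (GRCh38, plus strand). Control libraries 1 to 3 held 79.16, 87.01 and 74.24 CPM, and those with HNRNPD siRNA held 36.55, 38.75 and 36.77 CPM. The highest HNRNPD siRNA library was far below the lowest control library, and the spread within each group was small beside that gap. The fitted fall was 2.14-fold (log2 -1.10, SE 0.07, edgeR adjusted p = 1.79e-10), and 5.07% of all tested genes had a lower log2 fold change.

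PSAT1, the aminotransferase of the pathway, lies on chromosome 9 from 78297143 to 78330093 (plus strand). The control libraries held 48.74, 49.27 and 46.92 CPM and the HNRNPD siRNA libraries 25.37, 24.51 and 22.33 CPM. The groups were tight and well apart. The fall was 2.01-fold (log2 fold change -1.01, SE 0.07, edgeR adjusted p = 7.46e-10).

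PSPH, the phosphatase that completes serine synthesis, lies on chromosome 7 from 56011051 to 56051604 (minus strand). It had the fewest counts of the 9 genes, and its levels were 9.649, 11.18 and 10.68 CPM in the control libraries and 6.898, 6.18 and 5.72 CPM in the HNRNPD siRNA libraries. Its groups did not overlap, though its relative spread, with an SD of 7.44% and 9.48% of the mean, was wider than that of PSAT1 at 2.56% and 6.5%. The fall was 1.68-fold (log2 fold change -0.75, SE 0.11, edgeR adjusted p = 1.36e-05). All 3 steps from 3-phosphoglycerate to serine thus had lower mRNA levels, and the point estimate was smallest for PSPH.

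**Figure D2:**
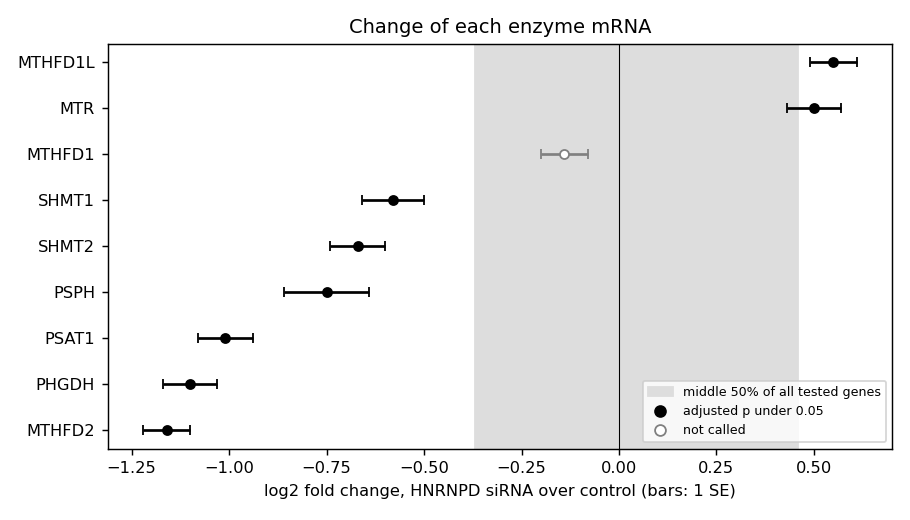
Fitted log2 fold change of each enzyme mRNA, HNRNPD siRNA over control, with bars of 1 SE and the middle 50% of all tested genes in grey. MTHFD2, PHGDH and PSAT1 lie at -1.16, -1.10 and -1.01, MTHFD1 lies inside the grey range and is drawn open because it was not called, and MTHFD1L and MTR lie at 0.55 and 0.50.

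SHMT1, the cytosolic serine hydroxymethyltransferase, lies on chromosome 17 from 18327860 to 18363563 (minus strand). It was counted at 25.12, 24.25 and 23.05 CPM in the control libraries and 15.89, 17.73 and 14.69 CPM in the HNRNPD siRNA libraries. All HNRNPD siRNA libraries were below all controls, with replicate 2 the nearest to them. The fall was 1.5-fold (log2 fold change -0.58, SE 0.08, edgeR adjusted p = 8.73e-06).

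SHMT2, its mitochondrial counterpart, lies on chromosome 12 from 57229327 to 57234935 (plus strand). It stood at 39.37, 38.82 and 36.74 CPM in the control libraries and 23.36, 26.49 and 22.43 CPM in the HNRNPD siRNA libraries. Replicate 2 was again the highest of the HNRNPD siRNA libraries and the groups did not overlap. The fall was 1.59-fold (log2 fold change -0.67, SE 0.07, edgeR adjusted p = 4.61e-07). RP11-123K3.9, on the opposite strand, shares 8.8% of the exonic bases of SHMT2, was counted at 23.33% to 25.06% of the SHMT2 count in each library and fell alongside it (log2 fold change -0.71), and its part in the fall of SHMT2 was not tested. Over the 6 libraries SHMT1 and SHMT2 had the most similar profiles of any pair among the 9, with a Euclidean distance of 0.113 between their centred log2 CPM values.

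MTHFD2, the mitochondrial methylenetetrahydrofolate dehydrogenase and cyclohydrolase, lies on chromosome 2 from 74198562 to 74217565 (plus strand). Its levels were 94.68, 92.69 and 87.47 CPM in the control libraries and 41.58, 39.01 and 42.04 CPM in the HNRNPD siRNA libraries. This was the largest fall of the 9 by point estimate, 2.24-fold (log2 fold change -1.16, SE 0.06, edgeR adjusted p = 2.56e-11), and 4.41% of all tested genes had a lower log2 fold change. The gene shares 33.2% of its exonic bases with other genes, all on the opposite strand, and no source used here gives the strand setting of the counting. Of these, SLC4A5, a bicarbonate transporter gene that shares 27.2% of the exonic bases of MTHFD2, was counted at 5.43 CPM in the control group and rose to 8.10 CPM (log2 fold change 0.58), opposite to MTHFD2. RP11-287D1.3, which shares 6.1%, was counted at 36.7 and 26.7 CPM and fell (log2 fold change -0.46), and its part in the fall of MTHFD2 was not tested.

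MTHFD1L, the mitochondrial formyltetrahydrofolate synthetase that releases formate, lies on chromosome 6 from 150865549 to 151101887 (plus strand). It moved the other way from MTHFD2, the enzyme just before it: its levels were 51.95, 52.66 and 47.58 CPM in the control libraries and 71.43, 73.76 and 78.06 CPM in the HNRNPD siRNA libraries. Every HNRNPD siRNA library was above every control. The rise was 1.47-fold (log2 fold change 0.55, SE 0.06, edgeR adjusted p = 7.28e-07), and 21.4% of all tested genes had a higher log2 fold change. This is the gene whose promoter window held the ATF and C/EBP element printed above. Any part of that element in the rise was not tested.

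MTHFD1, the trifunctional cytosolic enzyme, lies on chromosome 14 from 64388031 to 64463457 (plus strand). Its levels were 187.3, 174.2 and 178.7 CPM in the control libraries and 169.7, 171.3 and 150.1 CPM in the HNRNPD siRNA libraries. The highest HNRNPD siRNA library lay just under the lowest control, and replicate 3 was the lowest by a clear margin. The log2 fold change was -0.14 (SE 0.06, edgeR adjusted p = 0.0729), with a 95% interval of -0.269 to -0.005 before any adjustment over genes. MTHFD1 was therefore not called. It was called lower without HNRNPD siRNA replicate 1 (log2 fold change -0.17, edgeR adjusted p = 0.0455) and with no filter on low counts (-0.16, adjusted p = 0.0383), while the adjusted p ran from 0.0383 to 0.21 over 15 alternatives.

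MTR, methionine synthase, lies on chromosome 1 from 236795281 to 236903981 (plus strand). It stood at 162.5, 174.8 and 160.3 CPM in the control libraries and at 257.2, 229 and 219.1 CPM in the HNRNPD siRNA libraries. The groups were well apart, and the HNRNPD siRNA libraries spread more widely, with replicate 1 the highest. The rise was 1.42-fold (log2 fold change 0.50, SE 0.07, edgeR adjusted p = 3.26e-06). The partner of MTR, the reductase gene MTRR that keeps its cobalamin active, fell 1.47-fold (SE 0.1 in log2, edgeR adjusted p = 0.000153), from 26.8 ± 3.31 to 18.3 ± 2.15 CPM (SD, n = 3), so the mRNAs of the enzyme and of its reactivating partner moved in opposite directions. MTRR is named here after its values were seen.

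Levels of different genes were compared per kilobase of the exonic length that the table gives (RPKM), a length that includes every annotated isoform. In the control libraries PSAT1 was the highest at 22.1 ± 0.564 RPKM (SD, n = 3), followed by MTHFD1 at 19.2 ± 0.709 and MTHFD2 at 18.8 ± 0.765, whose ranges overlapped. MTR at 14.6 ± 0.686 and PHGDH at 14.3 ± 1.15 RPKM overlapped as well. MTHFD1L followed at 10.1 ± 0.547 and SHMT2 at 7.92 ± 0.287, and PSPH at 3.8 ± 0.283 and SHMT1 at 3.32 ± 0.143 RPKM were the lowest. In the HNRNPD siRNA libraries the order was MTR at 20.7 ± 1.74, MTHFD1 at 17.5 ± 1.26, MTHFD1L at 14.8 ± 0.67, PSAT1 at 11.0 ± 0.715, MTHFD2 at 8.39 ± 0.335, PHGDH at 6.64 ± 0.215, SHMT2 at 4.98 ± 0.439, PSPH at 2.27 ± 0.215 and SHMT1 at 2.21 ± 0.21 RPKM. In that group the ranges of PSPH and SHMT1 overlapped and those of the other neighbours did not. By RPKM, MTR thus took the first place, which PSAT1 held in the control libraries. The order between genes depends on the length used, and other lengths were not tried. In CPM the highest control mean was that of MTHFD1 at 180, against 48.3 for PSAT1.

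**Figure D3:**
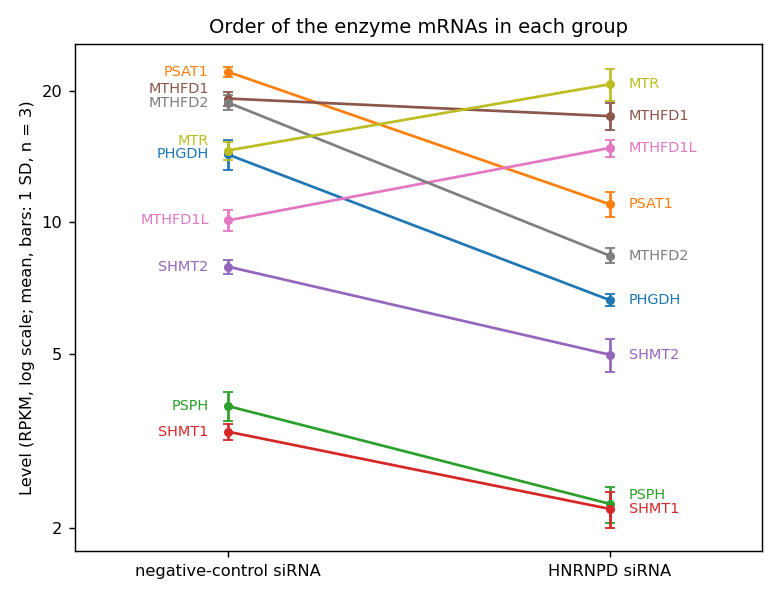
Mean level of each enzyme mRNA in RPKM on a log scale in the control group and in the HNRNPD siRNA group, with bars of 1 SD over 3 libraries. The rising line of MTHFD1L crosses the falling lines of PSAT1, MTHFD2 and PHGDH, and that of MTR crosses those of PSAT1, MTHFD2 and MTHFD1.

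Enzymes that act in mitochondria were also set against their cytosolic partners within each library, as log2 ratios of RPKM. For SHMT2 to SHMT1 the controls gave 1.24, 1.27 and 1.26 and the HNRNPD siRNA libraries 1.15, 1.17 and 1.2, a shift of -0.08 between genes that both fell. For MTHFD2 to MTHFD1 the controls gave -0.04, 0.03 and -0.09, so that the genes were nearly level per kilobase of the length used. Their control means in CPM were 91.6 and 180. The HNRNPD siRNA libraries gave -1.08, -1.19 and -0.89 for this ratio. MTHFD1L to MTHFD1 went the other way, from -0.95, -0.82 and -1.01 to -0.35, -0.31 and -0.04. The group means differed by -1.03 for MTHFD2 to MTHFD1 and by 0.69 for MTHFD1L to MTHFD1, with SDs of 0.06 to 0.17 within groups. None of the 3 ratios overlapped between the groups, and each gave p = 0.1 in a two-sided exact permutation test, the smallest p that 3 libraries against 3 allow.

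**Figure D4:**
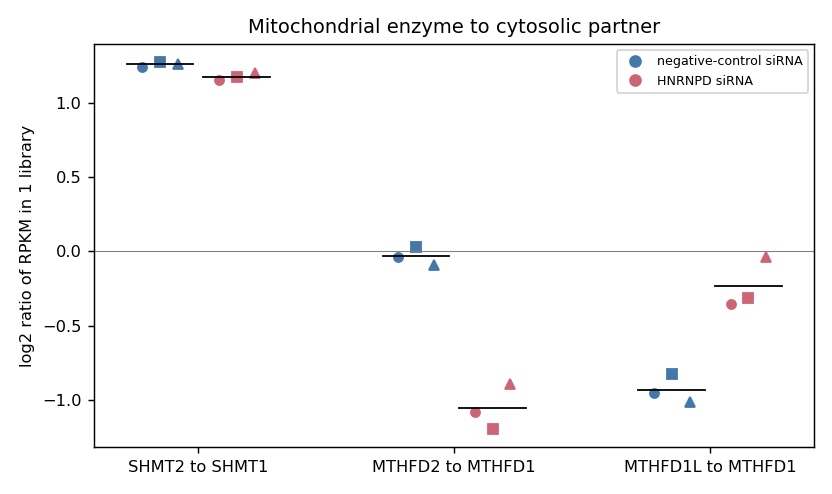
Log2 ratio of the RPKM of a mitochondrial enzyme to that of its cytosolic partner in each library, with control libraries in blue, HNRNPD siRNA libraries in red, a marker shape per replicate number (circle 1, square 2, triangle 3) and group means as lines. The ratio of MTHFD2 to MTHFD1 is lower and that of MTHFD1L to MTHFD1 higher in all 3 HNRNPD siRNA libraries.

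Reads of near-identical copies could be split between genes, and no source used here says how reads matching several places were counted. There were 14 pseudogene rows named after these enzymes, and none had more than 4 counts in any library. MTHFD2L, a separate mitochondrial enzyme gene, was counted at 7.05 ± 0.357 and 6.25 ± 0.331 CPM (SD, n = 3) and was not called (log2 fold change -0.17, SE 0.11). Of the distinct 50-base words in the GENCODE 29 transcripts of each gene, the share also present in transcripts of other genes, on either strand, was 30.5% for MTHFD2, 11.1% for MTHFD1, 6.2% for PSPH, 5.7% for SHMT2, 4.6% for PSAT1 and for SHMT1, 0.2% for MTHFD1L and MTR and 0.0% for PHGDH. For MTHFD2 most of this was the antisense overlap with SLC4A5, and 2.2% was shared with its pseudogenes. PHGDH, PSAT1, PSPH, MTHFD1L and MTR share no exonic bases with other genes in the table. SHMT2 shares 9.5% and MTHFD1 11.0% of theirs with genes on the opposite strand, and SHMT1 shares 2.7% with SMCR8, which was higher in the HNRNPD siRNA libraries (log2 fold change 0.61).

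The other genes of folate transport and turnover counted 12 lower, 3 higher and 4 not called among 19 tested, and their median log2 fold change was -0.31. For this and the lists that follow, the shares over all tested genes were 27.8% lower and 28.4% higher. ALDH1L2, the mitochondrial formyltetrahydrofolate dehydrogenase, fell 1.88-fold, from 28.6 ± 4.01 to 15.2 ± 0.156 CPM (SD, n = 3; edgeR adjusted p = 1.16e-07). GLDC, the decarboxylase of the glycine cleavage system, fell 1.57-fold (adjusted p = 3.91e-06). The thymidylate synthase gene TYMS fell 1.39-fold (adjusted p = 4.62e-06; 26.2% of its exonic bases shared with other genes). Among the 3 that went against the others was AMT, the aminomethyltransferase of glycine cleavage, which rose from 0.881 to 2.04 CPM and shares 63.1% of its exonic bases with other genes. The count of higher genes in the list was 2 without control replicate 1 and 2 without HNRNPD siRNA replicate 1.

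Of 14 tested genes of the methionine cycle, polyamine synthesis and transsulfuration, 8 were lower and 1 higher, with a median log2 fold change of -0.42. MAT2A, which makes S-adenosylmethionine, fell 1.48-fold, from 316.9 ± 1.05 to 214.6 ± 12.2 CPM (SD, n = 3; edgeR adjusted p = 1.83e-07). The genes AHCYL1 and AHCYL2, relatives of S-adenosylhomocysteine hydrolase, fell 1.42-fold and 1.54-fold, and the spermine synthase gene SMS 1.36-fold. The exception was CTH, the transsulfuration enzyme that yields cysteine, which rose 2.16-fold from the low level of 1.19 ± 0.0475 to 2.57 ± 0.266 CPM (SD, n = 3; adjusted p = 8.49e-05).

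In purine synthesis, which consumes formyl groups carried by folate, edgeR called 8 of 12 genes lower and 0 higher, at a median log2 fold change of -0.39. DESeq2 and limma-voom also called 0 higher, and 0 had a positive log2 fold change at an unadjusted p under 0.05. IMPDH1, which opens the branch to guanine nucleotides, fell 2.75-fold from 31.9 ± 1.75 to 11.6 ± 0.805 CPM (SD, n = 3; adjusted p = 3.97e-11). The phosphoribosyl pyrophosphate synthetase genes PRPS1 and PRPS2 fell 1.83-fold and 2.05-fold, and PAICS, which catalyses a pair of steps of ring assembly, fell 1.54-fold. The enzymes that use the folate-bound unit directly did not pass the test, with log2 fold changes of 0.01 (SE 0.06) for GART and -0.07 (SE 0.06) for ATIC. GART and ATIC are named here after their values were seen.

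**Figure D5:**
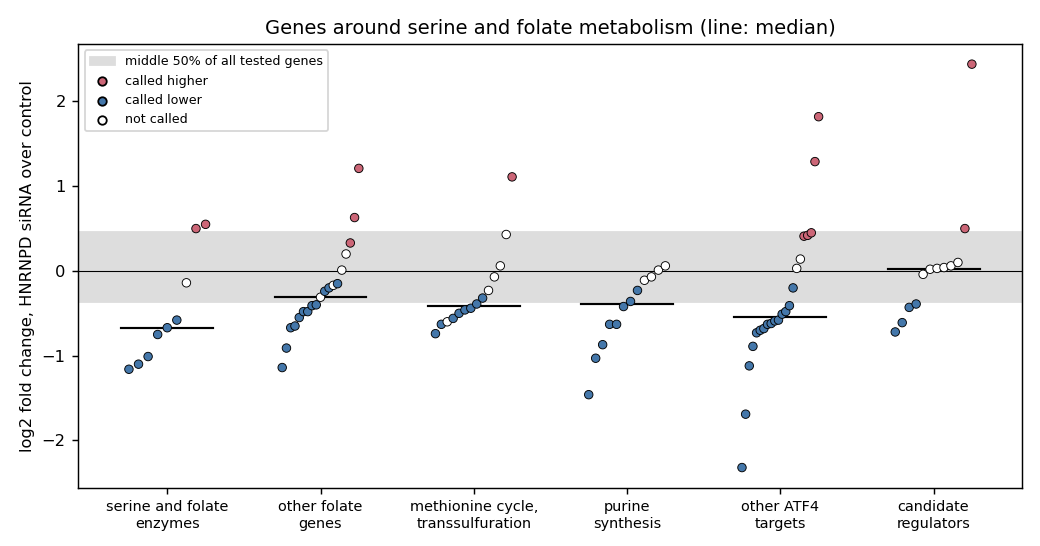
Fitted log2 fold change, HNRNPD siRNA over control, of each tested gene in 6 groups, with medians as lines and the middle 50% of all tested genes in grey. Blue, red and open points were called lower, called higher and not called, and 5 of the 6 medians lie below 0.

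Genes known as ATF4 targets, other than the 9 enzymes, counted 15 lower and 5 higher among 22, at a median log2 fold change of -0.55. STC2, a secreted glycoprotein, fell 3.24-fold (edgeR adjusted p = 3.48e-11), the cysteinyl and glycyl tRNA synthetase genes CARS and GARS fell 1.85-fold and 1.66-fold, and the amino acid transporter gene SLC7A5 fell 1.55-fold. Those that rose were DDIT3, which encodes the stress factor CHOP, ATF3, TRIB3, SESN2 and ATF5. SESN2, a sensor of leucine, rose 1.34-fold (adjusted p = 0.000901). The transcription factor gene ATF5, with 21.2% of its exonic bases shared with other genes, rose 1.33-fold (adjusted p = 0.000387). The other exceptions, named after their values were seen, had log2 fold changes of 1.29 for DDIT3, 1.82 for ATF3 and 0.45 for TRIB3, and DDIT3 shares 28.0% of its exonic bases with other genes.

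Of 12 genes of candidate regulators, 4 were lower and 2 higher, with a median log2 fold change of 0.02, near that of all tested genes. ATF4 itself fell 1.31-fold, from 228.1 ± 5.64 to 174.6 ± 5.4 CPM (SD, n = 3; edgeR adjusted p = 1.19e-05). NFE2L2, which encodes NRF2, fell 1.64-fold, from 89.1 ± 5.66 to 54.2 ± 0.814 CPM (adjusted p = 1.81e-08), and shares 20.9% of its exonic bases with other genes. The histone demethylase gene KDM4C, with 32.1% of its exonic bases shared, and the heme-regulated kinase gene EIF2AK1 had log2 fold changes of -0.43 and -0.61. One that rose was EIF2AK2, the RNA-activated kinase PKR that is inducible by interferon, at a log2 fold change of 2.44. The log2 fold changes of the 6 that were not called were 0.02 for KEAP1, -0.04 for MYC, 0.03 for the histone methyltransferase gene EHMT2, 0.04 and 0.06 for the kinase genes EIF2AK3 and EIF2AK4 and 0.10 for MTOR. MTOR was called higher without HNRNPD siRNA replicate 3 (0.14, adjusted p = 0.0281).

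The genes whose profile over the 6 libraries was most like that of PHGDH, out of 11325 others with a mean of at least 5 CPM, were OSGIN1, TAF4B and SCARB1. Their Euclidean distances from PHGDH in centred log2 CPM were 0.094, 0.118 and 0.126, and their log2 fold changes were -1.11, -1.08 and -1.09. MTHFD2 at 0.211 and PSAT1 at 0.214 were the closest of the other enzymes. The 6 libraries fall into 2 groups, and the group difference is part of every such distance.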

How the data were processed

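The deposited table gives read counts per gene, whole numbers as the authors made them, in 6 libraries. Per the labels, RNA was taken up in Trizol and libraries came from a TruSeq RNA kit. Per the submitters' processing notes, Bowtie 0.12.2 and 2 builds, GRCh38 and mm8, were involved, with no role stated. Counting program and strand: not given in the sources used here. Among 36117 rows with a GENCODE 29 name, 98.28% overlap that gene on GRCh38, as do all 9 enzymes. Between 66.2% and 69.5% of counts from 1 to 20 were even, and whether a count is a read or a pair of reads is not known.

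Counts were compared across all genes with edgeR 4.0.16 in R 4.3.3 (quasi-likelihood test with robust estimation, TMM scaling, filterByExpr, a model with the group alone). Adjustment was by Benjamini-Hochberg over the 20465 genes tested. Each standard error is the absolute log2 fold change divided by the square root of F. The procedure was checked only on simulated counts in which few genes changed, as many up as down. Every simulated gene had the same set spread between libraries. Data with as many changed genes as here were not simulated. CPM uses TMM-scaled totals. Distances used log2(CPM + 0.01). Library totals ran from 37151094 to 43005090 counts, and intervals cover the spread between libraries only. No deposited library was left out.

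Alternatives were other scalings, filters and tests (DESeq2 1.42.0, limma-voom 3.58.1), halved counts, no mitochondrial genes, a replicate block and leaving out each library. Deviations of same-numbered libraries correlated at 0.08, 0.03 and 0.01, and those of differently numbered libraries at -0.13 to 0.08. No pairing by replicate number was thus visible. With 3 libraries per group these correlations cannot tell whether same-numbered libraries were prepared together. Named genes are HNRNPD, the 9 enzymes, the 4 genes of each list with the smallest p and up to 2 called genes against its main direction, the tested candidate regulators and the 3 genes most like PHGDH. Some genes that this rule names are not reported here. The enzymes and lists were chosen with earlier results of these data known.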

Additional observations from a re-analysis of the deposited data

How the results depend on the processing

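The calls of 8 of the 9 enzymes kept their side of the threshold and their direction under all 15 alternatives, the exception being MTHFD1. Of the 9, 6 or 7 were called lower and 2 higher throughout. MTHFD1 had a log2 fold change of -0.16 with no filter on low counts, where it was called lower, and of -0.17 to -0.09 with each library left out in turn. The other enzymes ranged, over all alternatives, from -1.16 to -1.05 for PHGDH, -1.05 to -0.96 for PSAT1, -0.83 to -0.69 for PSPH, -0.66 to -0.53 for SHMT1, -0.74 to -0.63 for SHMT2, -1.21 to -1.13 for MTHFD2, 0.50 to 0.58 for MTHFD1L and 0.42 to 0.54 for MTR. Over all genes, 5125 to 5965 were called higher and 5049 to 5926 lower. The replicate block gave 5792 higher and 5737 lower genes and changed no call of the 9 enzymes. Of the 6 regulators that were not called, MTOR and EIF2AK4 stayed above 0 under all 15 alternatives and the other 4 changed sign under at least 1. Without control replicate 1 EIF2AK3 stood at -0.04 and MYC at 0.01, and without control replicate 3 EHMT2 stood at -0.01. KEAP1 stood at -0.00 with no filter on low counts, and at -0.01, -0.07 and -0.03 without control replicate 2, control replicate 3 or HNRNPD siRNA replicate 3. With each library left out in turn, EIF2AK3 ran from -0.04 to 0.07, MYC from -0.10 to 0.01 and EHMT2 from -0.01 to 0.05. The cause was not tested. The fewest counts of any enzyme, 229 to 479 per library for PSPH, go with its SE of 0.11, against 0.06 to 0.08 for the others.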
